A study of Mus musculus with 16 samples.

Results

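Kinesins, cytoplasmic dynein and dynactin are the machinery that moves cargo along microtubules. Most kinesins walk toward the plus ends, which point to the cell edge in a migrating fibroblast, dynein walks toward the minus ends near the centrosome, and dynactin joins dynein to its cargo and lengthens its runs. RNAs that accumulate in protrusions travel on the same tracks, and the RNAs that encode the motors are themselves among the RNAs measured here. The members were the RNAs whose gene symbol starts with Kif and a digit or c, Klc, Dync1, Dync2, Dynl or Dctn, and 53 of the 12900 RNAs in the table met this rule. They comprised 32 kinesin RNAs (28 motor subunits and 4 light chains, Klc), 15 dynein RNAs and 6 dynactin RNAs. Of the 53, 52 were protein coding and 1, Dynlt1-ps1, was a processed pseudogene.

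The data came from RNA-seq of NIH/3T3 cells, an established mouse fibroblast line. Both stable lines carried, by lentiviral transduction, a doxycycline-inducible reporter that codes for β-globin and ends in the HBB 3′UTR (human β-globin) in the control line or in the Pkp4 3′UTR in the Pkp4 cUTR line. Pkp4 RNA is itself enriched at protrusions, and the second line was built to test competition with endogenous RNAs for the same localization route. All samples received doxycycline at 1 µg/ml for 3 days, were plated for 2 h on filters with 3 μm pores, and extended protrusions in response to lysophosphatidic acid for 1 h before brief fixation in paraformaldehyde. Protrusions (Ps) from 3 filters and cell bodies (CB) from 1 filter gave 1 library each, with 4 replicates per line and fraction and 16 libraries in all. Cell bodies keep the nucleus, while the protrusion fraction is meant to be separated from it. A higher level in Ps is more reads relative to the scaled size of the library. It depends on that scaling and need not be a higher share of all reads of the fraction. More molecules of an RNA and less of the other RNAs in a fraction cannot be told apart.

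Read totals recovered from the deposited values ran from 18660287 to 31260831 per library, and levels are given as CPM, the reads per 1000000 of the scaled library. The fibroblast RNAs Col1a1, Col1a2, Fn1, Vim and S100a4 had at least 1620.1 CPM in every library. Col3a1 had 271.1 to 1062.5 CPM and Pdgfrb 158 to 405 CPM. Pecam1 and Cdh5, which mark endothelium, stayed at or below 1.001 CPM. Cd68, the 1 immune marker in the table of 4 looked for, was at 2.83 to 6.67 CPM. Of 5 epithelial markers 2 were in the table, and one of them, Krt14, was at 143 to 269.7 CPM in every library. Of 8 fibroblast RNAs looked for, 7 were in the table, and 2 of them were higher and 5 lower in protrusions of each line. Of all RNAs 28.3% were higher and 28.9% lower in HBB cells, and 28.2% and 28.5% in Pkp4 cUTR cells. Of 4 nuclear-retained RNAs, 3 were in the table, and their summed level was 159.8 to 315 CPM in HBB protrusions and 579.7 to 723 CPM in HBB cell bodies. In Pkp4 cUTR cells it was 185.9 to 274 CPM in protrusions and 476 to 538 CPM in cell bodies. These RNAs were thus lower but present in protrusions, and carry-over of cell-body material was not tested. Replicate 4 of the cell bodies lay farthest from its group in both lines, with a median absolute log2 difference of 0.16 in HBB and 0.19 in Pkp4 cUTR cells, against 0.09 to 0.10 and 0.09 to 0.14 for the other three replicates, over 10154 RNAs. Replicate 3 of the Pkp4 cUTR protrusions lay at 0.18. Counts that head each comparison are therefore also given without replicate 4 of the cell bodies.

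Some members cannot be told apart by their reads, and the sequences of the dynein light chains show where this matters. The first 30 coding bases are printed from the GENCODE transcripts (GRCm38), 5′ to 3′, with capitals at each base that differs from the first sequence of its set. Dynll1 (chr5:115297110-115300999, minus strand) and Dynll2 (chr11:87979525-87987533, minus strand) encode the LC8 light chains. They shared 217 of 267 coding bases (81.3%), and no stretch of a read's length was near-identical between them, so their values stand for separate RNAs.
Dynll1: atgtgcgaccggaaggcggtgatcaaaaat
Dynll2: atgtCTgaccggaaggcAgtgatcaaGaaC
The Tctex-type light chain Dynlt1 is encoded by a cluster of copies on chromosome 17, Dynlt1b (chr17:6430112-6436296, plus strand), Dynlt1a (chr17:6306340-6317500, minus strand), Dynlt1c (chr17:6601671-6609774, plus strand) and Dynlt1f (chr17:6646602-6655900, minus strand). Dynlt1a, Dynlt1c and Dynlt1f each matched Dynlt1b at 338 of 339 coding bases (99.7%), and the base that differed lay in the window printed.
Dynlt1b: atggaagacttccaggcctcagaggagact
Dynlt1a: atggaagacttccaggcctcCgaggagact
Dynlt1c: atggaagacttccaggcctcCgaggagact
Dynlt1f: atggaagacttccaggcctcCgaggagact
For each gene 1 transcript was compared, that with the longest coding sequence or, for the pseudogene, the longest. With the pseudogene the transcripts of these 5 RNAs shared between 90.4% and 100% of their length with other genes. Stretches of a read's length or more at 98% identity were counted. A transcript can be shorter than all exons of its gene, as for Dynlt1f (771 against 3627 bases). The other genes were each other and, for Dynlt1a, also Tmem181b-ps, which the sums below leave out. The compared transcripts of Kifc1 and Kifc5b shared 52.3% and 69.1% of their length with the other gene. How the counting split reads among such copies is uncertain, so their summed levels are given as well. In addition, 16 members had exons over exons of a gene on the other strand, among them Kif5b, Dync1li2, Dync1h1, Dctn6, Klc2, Kif4, Kif22 and Kifc2, and the sources do not say whether counting used the strand.

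The first question was which motor RNAs were enriched in protrusions of the control line. In HBB cells 23 members were higher and 11 lower in protrusions, and 19 did not pass (limma-voom, Benjamini-Hochberg adjusted p under 0.05 over all 12900 RNAs). Of all RNAs 28.3% were called higher and 28.9% lower. The classes differed in their counts: 12 of 15 dynein RNAs were higher and 1 was lower, 4 of 6 dynactin RNAs were higher and none lower, and 7 of 32 kinesin RNAs were higher and 10 lower. In Pkp4 cUTR cells 22 members were higher and 13 lower, against 28.2% and 28.5% of all RNAs. There the counts were 12 higher and 1 lower for dynein, 4 and 1 for dynactin, and 6 and 11 for kinesins. In both lines at once 21 members were higher (24.1% of all RNAs) and 10 lower (25.3%), and the same 12 dynein RNAs were among those higher. These 12 include Dynlt1a, Dynlt1b, Dynlt1c and Dynlt1f, and the lower kinesins include Kifc1 and Kifc5b. Such copies may share reads and are not separate measurements, yet each is counted here and in the medians. The median log2 fold change in HBB and Pkp4 cUTR cells was 0.43 and 0.41 for dynein, 0.26 and 0.25 for dynactin, and −0.03 and −0.12 for kinesins, beside 0.01 in each line for all RNAs.

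These directions rest on how the fractions were scaled to each other. The deposited values use scaling factors of 0.83 to 0.97 for protrusions and 1.07 to 1.11 for cell bodies, and when reads were instead scaled to sample totals the median of all RNAs moved to −0.23 in HBB and −0.25 in Pkp4 cUTR cells. With that scaling 9 members were higher and 20 lower in HBB cells (15.04% and 43.5% of all RNAs), and 8 were higher and 22 lower in Pkp4 cUTR cells (13.9% and 45.5%). This scaling shifts all RNAs by nearly the same amount, so medians relative to that of all RNAs return by construction and are no test. They were 0.42 and 0.40 for dynein, 0.26 and 0.25 for dynactin, and −0.04 and −0.13 for kinesins. All 11 and 13 RNAs first called lower stayed lower, but a downward shift of all RNAs favors such calls and does not test them. Of those first called higher, 7 were higher in both lines under either scaling, namely Kif1c, Kif5b, Dynll2, Dynll1, Dynlrb1, Dynlt3 and Dync1li2. Leaving out each of the 16 libraries in turn, 24 of the 34 calls in HBB cells and 25 of the 35 in Pkp4 cUTR cells were kept in every fit, including those 7. Without replicate 4 of both lines' cell bodies, the counts were 20 higher and 12 lower in HBB (29.4% and 30.9% of all RNAs in that fit) and 23 higher and 15 lower in Pkp4 cUTR cells (30.95% and 30.8%).

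**Figure D1:**
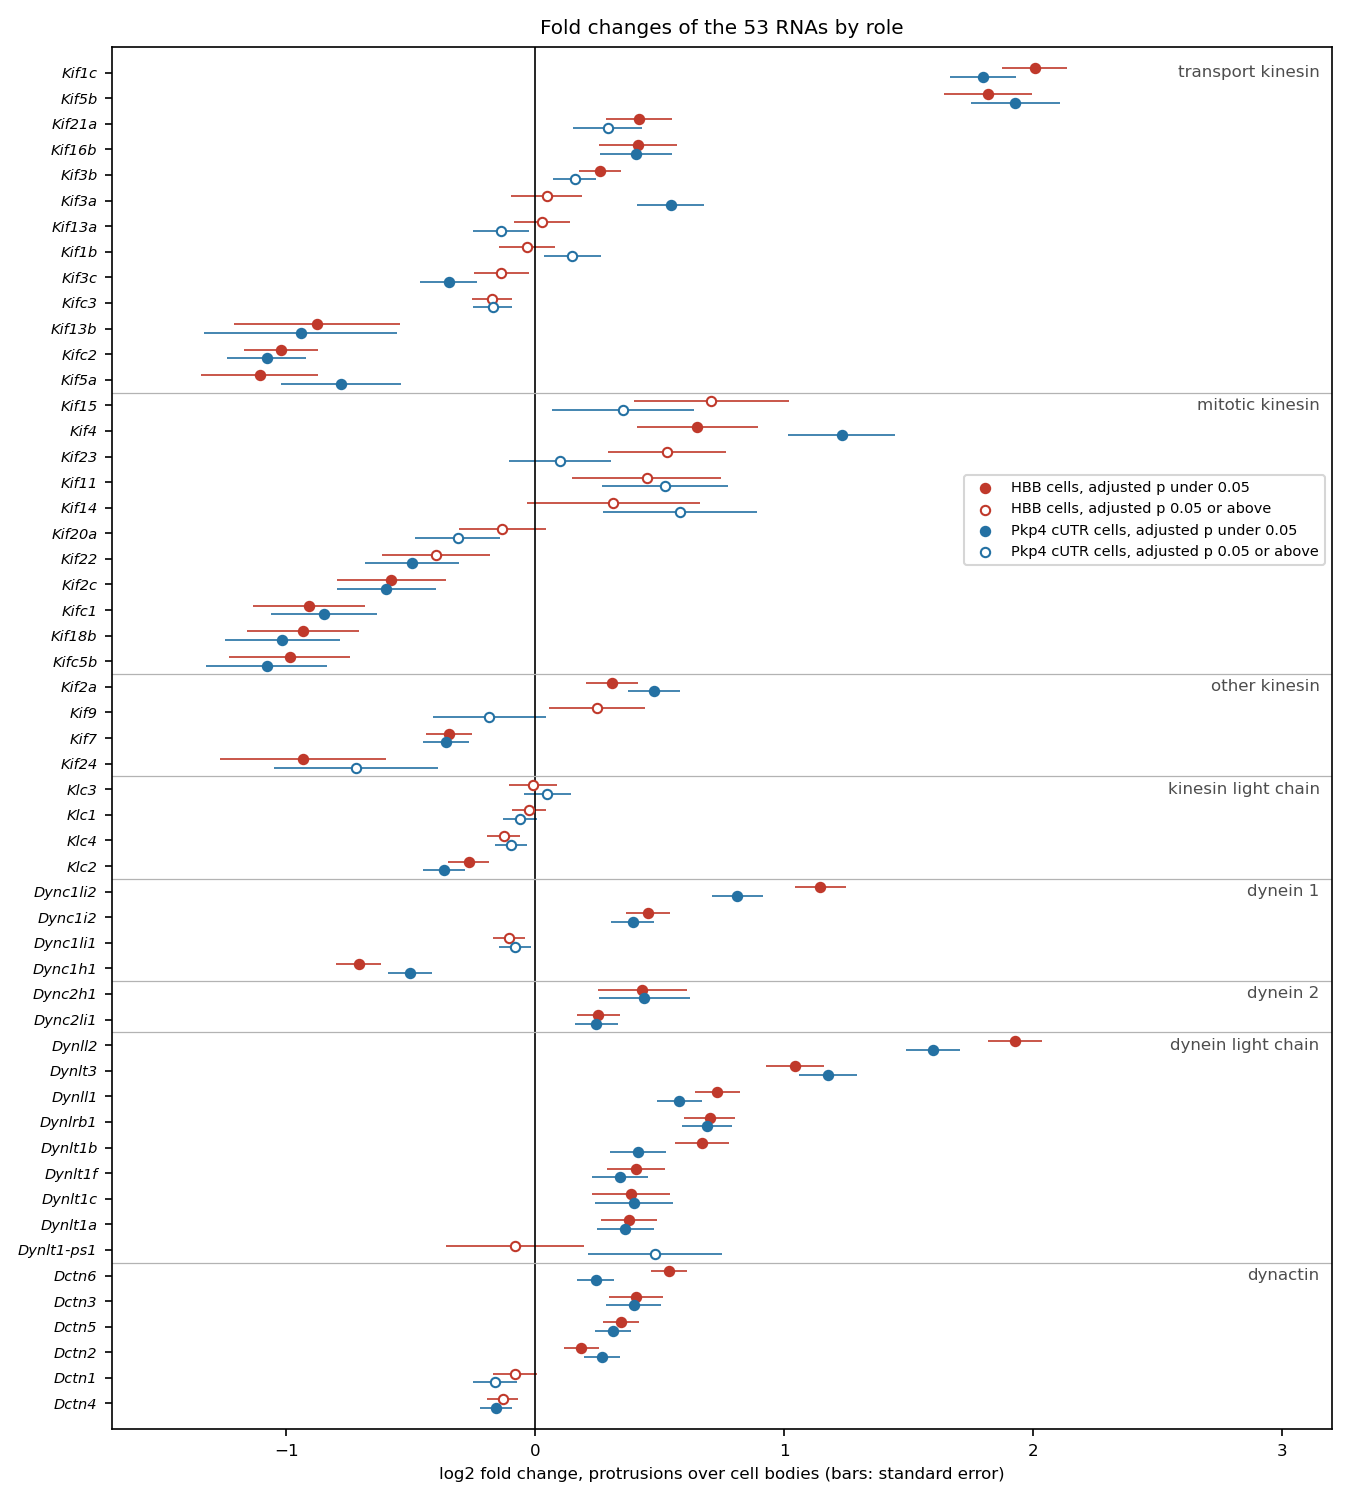
Log2 fold change of each of the 53 RNAs, protrusions over cell bodies (x axis, bars are the standard error of the fit), by role, for HBB cells in red and Pkp4 cUTR cells in blue, 4 libraries per group. Filled points passed an adjusted p of 0.05. Kif1c, Kif5b and Dynll2 lie apart at 1.60 to 2.01 in both lines. To the right of 0, 8 of 9 dynein light chains are filled, the Dynlt1 copies that may share reads among them. Dync1h1 is filled to the left of 0. With reads scaled to sample totals every point moves left by about the shift of the median of all RNAs, −0.23 and −0.25.

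Among the kinesins that carry organelles and other cargo, Kif1c, a fast plus-end motor, had the highest level of all kinesin RNAs per kilobase of exon (110.2 CPM per kb over the 16 libraries). Its level was 1319, 1036, 1789 and 1338 CPM in HBB protrusions and 341, 326, 349 and 326 CPM in HBB cell bodies. In Pkp4 cUTR cells it was 1436, 1040.4, 1079 and 1115 CPM in protrusions and 342, 361, 362 and 274 CPM in cell bodies. Every protrusion library was above every cell-body library, and replicate 3 of the HBB protrusions was the highest of all. The log2 fold change was 2.01 ± 0.13 (SE, a 4.01-fold difference, adjusted p = 4.42e-09) in HBB and 1.80 ± 0.13 (3.48-fold, adjusted p = 1.79e-08) in Pkp4 cUTR cells, by limma.

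Kif1c accounted for the rise of the kinesin class in summed reads. Summed over the 32 kinesin RNAs, the level was 1914 ± 323 CPM (SD, n = 4) in HBB protrusions and 911 ± 45.1 CPM in cell bodies, and 1704 ± 181 against 912 ± 66.98 CPM in Pkp4 cUTR cells. Without Kif1c, the other 31 summed to 543 ± 12.3 and 575 ± 34.8 CPM in HBB and to 537 ± 20.4 and 577 ± 35.3 CPM in Pkp4 cUTR cells, with overlapping ranges in both lines. Kif1c was 71.1% ± 4.08 of the kinesin reads in HBB protrusions and 36.9% ± 0.845 in HBB cell bodies (SD, n = 4). The dynein sum was 1552 ± 158 against 1046 ± 48.9 CPM and the dynactin sum 974 ± 64.3 against 878 ± 7.88 CPM in the protrusions and cell bodies of HBB cells. All these sums use the deposited scaling. The direction of the dynactin difference and the overlap of the other 31 kinesins depend on it. With reads scaled to totals the median log2 fold changes in HBB cells were 0.03 for dynactin and −0.27 for kinesins.

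**Figure D2:**
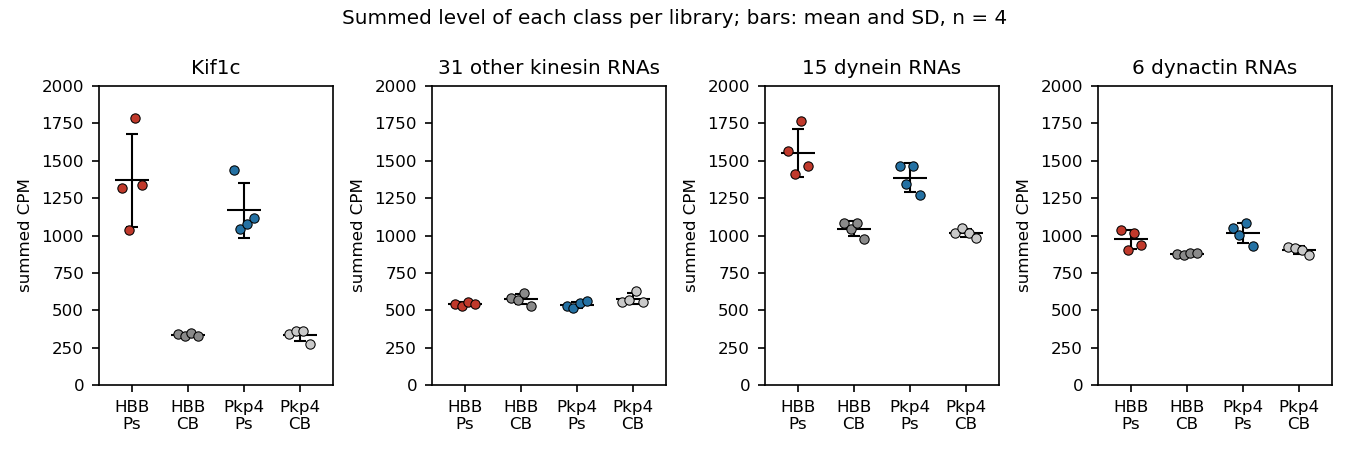
Summed CPM (y axis, from 0) of Kif1c, of the other 31 kinesin RNAs, of the 15 dynein RNAs and of the 6 dynactin RNAs in each library. Points are the 4 libraries of a group, bars the mean and SD. Kif1c and the dynein sum are higher in every protrusion library than in any cell-body library. The other kinesins overlap between the fractions at the deposited scaling, on which that overlap depends.

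Kif5b, the ubiquitous heavy chain of conventional kinesin, was enriched to a similar degree from a much lower level. It had 22.8, 28.2, 28.04 and 26.04 CPM in protrusions and 8.65, 6.94, 6.11 and 8.41 CPM in cell bodies of HBB cells, and 19.9, 29.4, 30.4 and 31.9 against 6.87, 5.45, 6.70 and 10.9 CPM in Pkp4 cUTR cells. No library of one fraction reached the other, and the log2 fold changes were 1.82 ± 0.18 (adjusted p = 1.75e-07, limma) and 1.93 ± 0.18 (adjusted p = 1.56e-07). Kif5a, the neuronal heavy chain, went the other way at levels near 1 to 2 CPM. Its protrusion libraries held 0.949, 0.782, 0.978 and 0.911 CPM and its cell-body libraries 1.97, 2.31, 2.26 and 1.36 CPM in HBB cells, without overlap. It fell by 1.11 on the log2 scale in HBB cells (adjusted p = 0.000599, limma) and by 0.78 in Pkp4 cUTR cells (adjusted p = 0.0104). The light chains that pair with these motors were not among the enriched RNAs. Klc1 had log2 fold changes of -0.02 and -0.06 and Klc4 of -0.13 and -0.10, none of which passed. Klc2 was lower in both lines (-0.27 and -0.37, adjusted p = 0.00972 and 0.00122, limma). With reads scaled to totals all 4 light chains were called lower in both lines, where 43.5% and 45.5% of all RNAs were.

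The heterotrimeric kinesin of Kif3a, Kif3b and the adaptor Kifap3 carries cargo into cilia and along microtubules. Kif3b was higher in HBB protrusions (33.1, 32.5, 34.2 and 33.2 CPM) than in cell bodies (29.997, 28.2, 30.6 and 22.6 CPM), and the groups did not overlap. Its log2 fold change was 0.26 (adjusted p = 0.014, limma) and lost its call when reads were scaled to totals (0.02, adjusted p = 0.878). In Pkp4 cUTR cells it did not pass (0.16, adjusted p = 0.123), and the value was -0.11 with reads scaled to totals. Kif3a was called higher in Pkp4 cUTR protrusions (0.54, adjusted p = 0.0022, limma; 0.28 and adjusted p = 0.0967 with reads scaled to totals) and had a value of 0.05 (adjusted p = 0.802) in HBB cells. Kifc2, a minus-end kinesin, was the only member more than 2-fold lower in both lines (2.16% of all RNAs were), with 3.48, 3.37, 2.66 and 3.93 CPM in protrusions and 6.43, 6.73, 8.04 and 6.06 CPM in cell bodies of HBB cells. Its groups did not overlap in either line and it fell by 1.02 and 1.08 on the log2 scale (adjusted p = 1.36e-05 and 2.04e-05, limma). At more than 2-fold with an unadjusted p under 0.05, the cutoffs of the study, 5 members were higher (4.54% of all RNAs) and 2 lower (4.00%) in HBB cells, and 5 were higher (5.07%) and 3 lower (2.92%) in Pkp4 cUTR cells. By these cutoffs 4 members were higher in both lines (3.02% of all RNAs), and these were Kif1c, Kif5b, Dynll2 and Dynlt3.

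The kinesins that act in mitosis and cytokinesis were mixed. Of 11 such RNAs 1 was higher and 4 were lower in HBB protrusions, against 28.3% and 28.9% of all RNAs. In Pkp4 cUTR protrusions 1 was higher and 5 were lower, against 28.2% and 28.5%. Those lower in both were Kif2c, a microtubule depolymerase, Kif18b, which acts at microtubule plus ends, and the minus-end spindle motor Kifc1 with its near-identical copy Kifc5b. Kif18b had 7.01, 4.79, 6.57 and 7.43 CPM in protrusions and 11.1, 10.8, 13.9 and 13.4 CPM in cell bodies of HBB cells, without overlap, and fell by 0.93 on the log2 scale (adjusted p = 0.0017, limma) and by 1.02 in Pkp4 cUTR cells (adjusted p = 0.00116). Kifc1 and Kifc5b together summed to 9.81, 9.38, 7.77 and 10.6 CPM in protrusions and 16.9, 16.5, 19.6 and 18.6 CPM in cell bodies of HBB cells. The sums did not overlap, and the separate log2 fold changes were -0.91 and -0.99. Kif4, which binds chromosomes, was the one mitotic member higher in both lines, and Kif11, the spindle motor Eg5, did not pass in either line (0.45 ± 0.30 and 0.52 ± 0.25). Kif4 had log2 fold changes of 0.65 and 1.23 (adjusted p = 0.0289 and 0.000105, limma), and its call in HBB cells was lost with reads scaled to totals (0.42, adjusted p = 0.131) and without HBB_CB replicate 1, 2 or 3 or HBB_Ps replicate 1 or 3 (adjusted p up to 0.0811). Kif22 was lower in Pkp4 cUTR protrusions (-0.50, adjusted p = 0.033, limma), a call lost without Pkp4_CB replicate 3 or 4 or Pkp4_Ps replicate 1 or 2 (adjusted p up to 0.163). Kif14, Kif15 and Kif20a did not pass in either line, with values from -0.31 to 0.71. The Kif2c call in HBB cells was lost without any one of 5 libraries (HBB_CB replicates 1 and 3, HBB_Ps replicates 1, 2 and 3), with adjusted p up to 0.0855, and that in Pkp4 cUTR cells without Pkp4_CB replicate 3 or Pkp4_Ps replicate 1 or 2, with adjusted p up to 0.0633.

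The summed level of the 11 mitotic kinesins moved with replicate, most in the Pkp4 cUTR line. In its cell bodies it was 64.3, 64.1, 109 and 108 CPM and in its protrusions 49.5, 51.2, 68.9 and 72.1 CPM, so replicates 3 and 4 were above replicates 1 and 2 in both fractions. HBB libraries differed less, with 63.2, 62.2, 68.2 and 63.6 CPM in cell bodies, where replicates 3 and 4 were also the higher pair, and 48.9, 44.01, 42.4 and 47.9 CPM in protrusions, where they were not. A list of 10 proliferation RNAs split the same way, at 135, 134, 218 and 223 CPM in the Pkp4 cUTR cell bodies and 111, 113, 169 and 168 CPM in the protrusions. In HBB cells it was at 111, 114, 129 and 129.7 CPM in cell bodies, with replicates 3 and 4 again above 1 and 2, and 96.4, 90.5, 92.4 and 95.8 CPM in protrusions, without that order. In protrusions over cell bodies 0 of these 10 were higher and 4 lower in HBB cells, against 28.3% and 28.9% of all RNAs. In Pkp4 cUTR cells 3 were higher and 5 lower, against 28.2% and 28.5%. The medians were −0.30 and −0.32. With reads scaled to totals 6 were lower in each line, against 43.5% and 45.5% of all RNAs. The part of cell cycle state in the mitotic kinesin values was not tested.

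**Figure D3:**
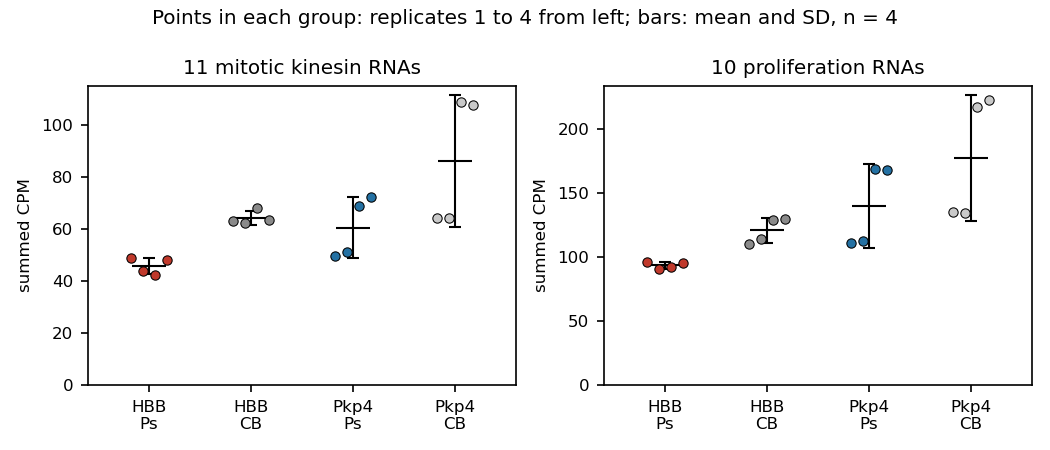
Summed CPM (y axis, from 0) of the 11 mitotic kinesin RNAs and of 10 proliferation RNAs in each library. Points run from replicate 1 to replicate 4 within a group, bars are the mean and SD. In both fractions of the Pkp4 cUTR line and, by less, in the HBB cell bodies replicates 3 and 4 sit above replicates 1 and 2 in both lists.

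The remaining kinesins were called in either direction or did not pass. Kif2a, a microtubule depolymerase, was higher in both lines (0.31 and 0.48, adjusted p = 0.0184 and 0.000782, limma), as was Kif16b, a motor of early endosomes (0.41 and 0.40, adjusted p = 0.031 and 0.0235). Kif21a was called higher in HBB cells (0.42, adjusted p = 0.0124) and had a value of 0.29 in Pkp4 cUTR cells. None of these calls held with reads scaled to totals, where the values ran from 0.02 to 0.21. The Kif2a call in HBB cells was also lost without HBB_CB replicate 4 or HBB_Ps replicate 2, and the Kif16b calls without HBB_CB replicate 1 or 4, HBB_Ps replicate 1 or 3, Pkp4_CB replicate 2 or Pkp4_Ps replicate 1 or 3 in the line concerned. Kif13b was lower in both lines (-0.88 and -0.94, adjusted p = 0.0317 and 0.0449, limma) at 6.25 to 9.18 CPM in HBB protrusions and 10.1 to 17.03 CPM in HBB cell bodies. That call was lost in HBB cells without HBB_CB replicate 2 or 3 or HBB_Ps replicate 1 or 2, and in Pkp4 cUTR cells in 11 of the 16 fits that left out 1 library (all but those without HBB_CB replicate 3 or 4, Pkp4_CB replicate 4 or Pkp4_Ps replicate 1 or 4), with adjusted p up to 0.199. Kif24, which acts at the centriole, was lower in HBB cells (-0.93, adjusted p = 0.0235, limma; lost without HBB_CB replicate 2 or HBB_Ps replicate 1 or 2) and had a value of -0.72 in Pkp4 cUTR cells. Kif3c was lower in Pkp4 cUTR cells (-0.35, adjusted p = 0.0147; lost without Pkp4_CB or Pkp4_Ps replicate 2). Kif1b, Kif13a, Kifc3 and Klc3 passed in neither line, with values from -0.17 to 0.15.

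Kif7, which regulates Hedgehog signaling at the tip of the cilium, was lower in protrusions of both lines (-0.35 and -0.36, adjusted p = 0.00346 and 0.00317, limma). Its levels were 16.7 to 18.99 CPM in protrusions and 20.2 to 24.02 CPM in cell bodies of HBB cells, and those groups did not overlap.

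Within cytoplasmic dynein the motor subunit and the light chains moved in opposite directions. Dync1h1, the heavy chain that holds the motor, was the only dynein RNA lower in protrusions. It had 278, 271, 234 and 255 CPM in protrusions and 454, 431, 452 and 366 CPM in cell bodies of HBB cells, and 288, 279, 261 and 265 against 389, 428, 415 and 326 CPM in Pkp4 cUTR cells. The fractions did not overlap in either line, and it fell by 0.71 on the log2 scale in HBB (SE 0.09, adjusted p = 3.13e-06, limma) and by 0.50 in Pkp4 cUTR cells (SE 0.09, adjusted p = 0.000123). Dync1li2, a light intermediate chain that links dynein to cargo adaptors, was higher. It had 98.01, 95.01, 119 and 90.8 CPM in protrusions and 50.7, 46.7, 46.9 and 37.4 CPM in cell bodies of HBB cells, and 91.1, 78.5, 77.5 and 77.4 against 47.7, 45.7, 50.9 and 40.6 CPM in Pkp4 cUTR cells, with no overlap. The log2 fold changes were 1.15 ± 0.10 (adjusted p = 6.13e-08, limma) and 0.81 ± 0.10 (adjusted p = 3.49e-06). Its paralog Dync1li1 did not pass in either line (-0.11 and -0.08, adjusted p = 0.166 and 0.281), and was called lower when reads were scaled to totals (-0.34 and -0.35). The intermediate chain Dync1i2 was higher in both lines (0.45 and 0.39, adjusted p = 0.000252 and 0.000986, limma), a call lost with reads scaled to totals (0.21 and 0.13, adjusted p = 0.0703 and 0.281).

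The light chains, small subunits that dimerize on the dynein intermediate chain, were higher in both lines in 8 of 9 cases (24.1% of all RNAs). The pseudogene was the exception. The 8 include Dynlt1a, Dynlt1b, Dynlt1c and Dynlt1f, copies that may share reads and are not separate measurements. With reads scaled to totals, 5 of the 8 were called higher in HBB (15.04% of all RNAs) and 4 in Pkp4 cUTR cells (13.9%). Dynll2 stood first. Its level was 505, 416, 663 and 485 CPM in protrusions and 136, 128, 139.9 and 134 CPM in cell bodies of HBB cells, and 418, 320.1, 371 and 326 against 120.5, 121, 118 and 111 CPM in Pkp4 cUTR cells. Every protrusion library exceeded every cell-body library, with log2 fold changes of 1.93 ± 0.11 (3.80-fold, adjusted p = 9.28e-10, limma) and 1.60 ± 0.11 (3.03-fold, adjusted p = 7.64e-09). Dynll1, whose coding start is printed above beside that of Dynll2, rose less. It had 226, 231, 272 and 238 CPM in protrusions and 138, 139, 151 and 155 CPM in cell bodies of HBB cells, again without overlap, and log2 fold changes of 0.73 and 0.58 (adjusted p = 2.67e-06 and 3.76e-05, limma). Of the reads of this pair, Dynll2 took 67.8% ± 2.80 in HBB protrusions and 48.02% ± 1.29 in HBB cell bodies (SD, n = 4), a ratio that no scaling of the libraries changes.

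Dynlrb1, the roadblock light chain, had the highest level per kilobase of exon of all 53 RNAs (201 CPM per kb over the 16 libraries). It had 269, 216, 297 and 226 CPM in protrusions and 155, 152, 152 and 157 CPM in cell bodies of HBB cells, with no overlap and log2 fold changes of 0.70 and 0.69 in HBB and Pkp4 cUTR cells (adjusted p = 1.34e-05 and 1.84e-05, limma). Dynlt3, the Tctex-type light chain encoded on the X chromosome, had 19.4, 20.6, 17.98 and 18.3 CPM in protrusions and 11.1, 8.63, 9.70 and 7.50 CPM in cell bodies of HBB cells. It passed 2-fold in both lines (2.06-fold and 2.26-fold, adjusted p = 8.1e-07 and 3.09e-07, limma). The 5 Dynlt1 RNAs that share reads summed to 55.2, 43.2, 62.2 and 51.4 CPM in HBB protrusions and 37.3, 39.5, 39.7 and 37.3 CPM in HBB cell bodies. In Pkp4 cUTR cells the sums were 55.3, 49.3, 54.3 and 51.6 and 37.5, 43.7, 40.2 and 42.3 CPM. At the deposited scaling protrusions were above cell bodies in every library of both lines, a separation that depends on that scaling. With reads scaled to totals Dynlt1a, Dynlt1c and Dynlt1f were called in neither line, with values from 0.08 to 0.17. Dynlt1b, the copy with the largest change in HBB cells, had log2 fold changes of 0.67 and 0.41 (adjusted p = 4.43e-05 and 0.00438, limma), the second of which was 0.15 (adjusted p = 0.237) with reads scaled to totals.

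Dynein-2, the motor that returns cargo from the tip of the cilium, was measured by Dync2h1 and Dync2li1. Dync2h1 was at 2.34 to 2.98 CPM in protrusions and 1.45 to 2.16 CPM in cell bodies of HBB cells. It passed narrowly in both lines (0.43 and 0.44, adjusted p = 0.0455 and 0.0483, limma), and lost the call in 9 and 14 of the 16 fits that left out 1 library, with adjusted p up to 0.128 and 0.149, and when reads were scaled to totals (0.19 and 0.16). In HBB cells those libraries were HBB_CB replicates 2, 3 and 4, HBB_Ps replicates 1, 2 and 4 and Pkp4_CB replicates 1, 2 and 3, and in Pkp4 cUTR cells all but HBB_CB replicate 4 and Pkp4_Ps replicate 3. Dync2li1, its light intermediate chain, was at 16.1 to 19.6 CPM in protrusions and 13.1 to 16.02 CPM in cell bodies of HBB cells. It was called higher in both lines (0.25 and 0.24, adjusted p = 0.0184 and 0.0206, limma), and neither call held with reads scaled to totals (0.02 and -0.02). The calls were also lost without HBB_CB replicate 4 or HBB_Ps replicate 1 or 2 in HBB cells, and without Pkp4_CB replicate 2 or Pkp4_Ps replicate 3 in Pkp4 cUTR cells.

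**Figure D4:**
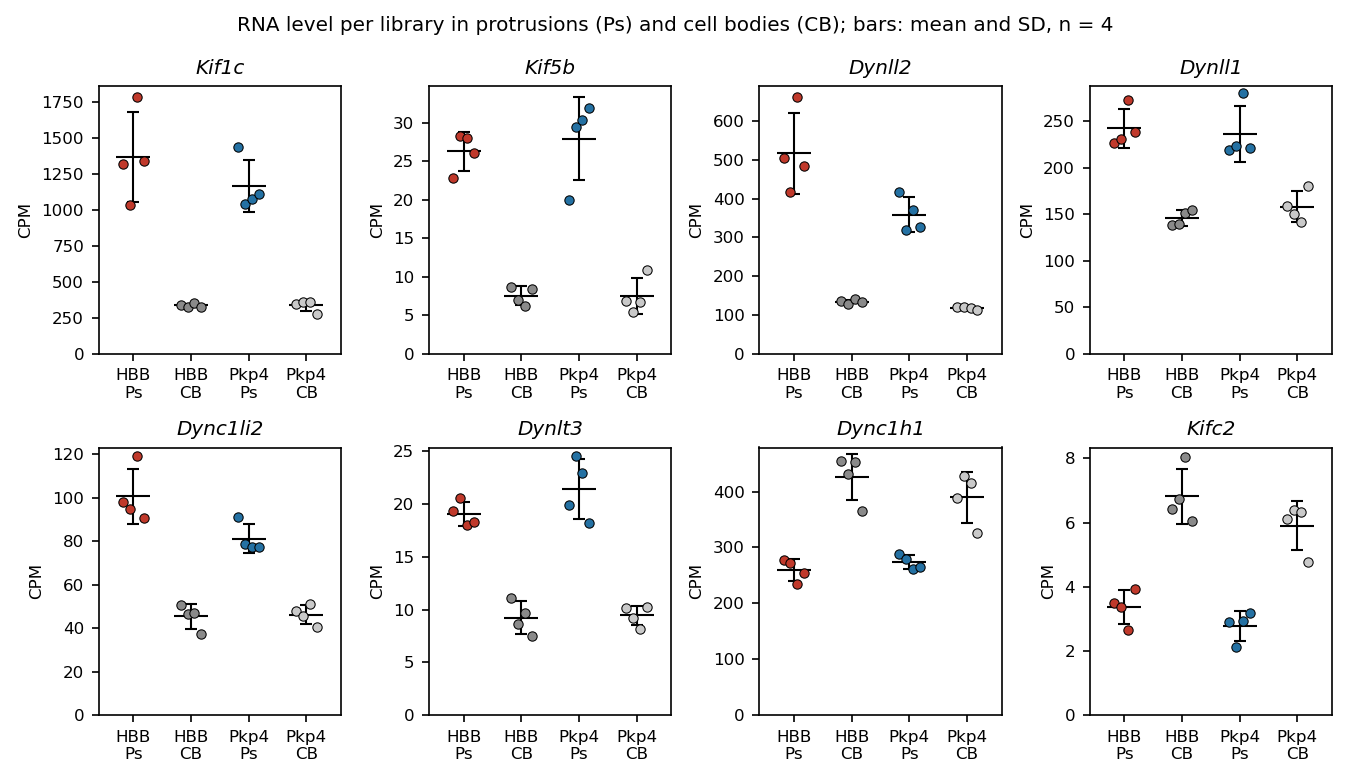
CPM (y axes, from 0) of Kif1c, Kif5b, Dynll2, Dynll1, Dync1li2, Dynlt3, Dync1h1 and Kifc2 in each library, for protrusions (Ps) and cell bodies (CB) of the HBB and Pkp4 cUTR lines. Points are the 4 libraries of a group, bars the mean and SD. In each panel the 4 protrusion libraries of a line do not overlap its 4 cell-body libraries, and Dync1h1 and Kifc2 are the panels where cell bodies are higher.

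Dynactin is built of a projecting arm, a shoulder and a short actin-like filament with caps at its ends. Dctn1, the arm that binds microtubules and dynein, did not differ beyond its error (-0.08 ± 0.09 and -0.16 ± 0.09, adjusted p = 0.453 and 0.126), and was called lower with reads scaled to totals (-0.32 and -0.43). The shoulder subunits Dctn2 and Dctn3 were higher in both lines, with log2 fold changes of 0.19 and 0.27 for Dctn2 and 0.40 and 0.39 for Dctn3 (adjusted p = 0.0328, 0.004, 0.00418 and 0.00541, limma). These 4 calls were lost with reads scaled to totals, where Dctn2 was at -0.05 in HBB cells and Dctn3 at 0.17. The Dctn2 call in HBB cells was also lost without HBB_CB replicate 1, 2 or 3 or HBB_Ps replicate 1 or 3 (adjusted p up to 0.114). Dctn5, another pointed-end subunit, was higher (0.34 and 0.31, adjusted p = 0.000523 and 0.00125, limma), but did not pass with reads scaled to totals (0.11 and 0.05). Dctn4 was lower in Pkp4 cUTR cells (-0.16, adjusted p = 0.0406), a call lost without Pkp4_CB replicate 2 or 3 or Pkp4_Ps replicate 1, 2 or 3 (adjusted p up to 0.142), and had a value of -0.13 in HBB cells. Dctn6, at the pointed end of the filament, was at 54.3, 50.3, 54.6 and 47.8 CPM in protrusions and 36.1, 34.7, 35.8 and 35.8 CPM in cell bodies of HBB cells. The groups did not overlap, its log2 fold change was 0.54 ± 0.07 (adjusted p = 6.36e-06, limma), and it was the one dynactin RNA called higher in HBB cells under either scaling. In Pkp4 cUTR cells it was 0.24 (adjusted p = 0.0105), and -0.02 with reads scaled to totals.

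A list of 32 RNAs beside these motors (the dynactin filament, dynein regulators, adaptors, cargo linkers and Cenpe) had 28 in the table. Cenpe is itself a kinesin, whose symbol lies outside the rule. Its log2 fold changes were 0.83 in HBB (adjusted p = 0.159, limma) and 1.23 in Pkp4 cUTR cells (adjusted p = 0.0229). Of the 28, 11 were higher and 6 lower in HBB protrusions, against 28.3% and 28.9% of all RNAs. In Pkp4 cUTR protrusions 12 were higher and 6 lower, against 28.2% and 28.5%. The medians were 0.07 and 0.12. With reads scaled to totals 4 were higher in each line (15.04% and 13.9% of all RNAs) and 11 and 12 lower (43.5% and 45.5%). The 6 RNAs of the dynactin filament (Actr1a, Actr1b, Actr10, Capza1, Capza2 and Capzb) were higher in 5 and 4 cases and lower in none, and with reads scaled to totals in 2 and 1, with Actr1a lower in both lines. Capza2, a filament cap, was higher under either scaling (log2 fold changes of 0.96 and 0.89, adjusted p = 2.84e-07 and 8.48e-07, limma). Trak2, an adaptor that joins mitochondria to motors, rose with a log2 fold change of 1.92 in HBB and 1.66 in Pkp4 cUTR cells (adjusted p = 7.53e-09 and 6.18e-08, limma), while the dynein adaptor Bicd2 was lower (-0.94 and -0.85, adjusted p = 4.06e-07 and 2.09e-06). Kifap3 was higher in both (0.55 and 0.89, adjusted p = 0.000442 and 2.76e-06).

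RNA length moved with enrichment over all RNAs. Among the shortest RNAs by exon bases (up to 2393 bases, 1 of 4 equal classes) 40.3% of RNAs were higher in HBB protrusions and 12.1% lower, and among the longest (over 6502 bases) 23.5% and 34.3%. Over all 12321 RNAs with an annotated length, Spearman's rho of log2 fold change with exon bases was −0.25 in HBB and −0.21 in Pkp4 cUTR cells, a description across genes, which are not independent and share the libraries. Over the 53 members it was −0.04 and −0.09, and over the 32 kinesins 0.40 and 0.37. Of the light chains named here, Dynlrb1 had 1009 exon bases, Dynlt3 2576, Dynll2 2736 and Dynll1 3890, while Kif1c had 7276 and Dync1h1 15658. The part of length in the class medians was not tested.

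The second question was whether the Pkp4 3′UTR changed the enrichment of motor RNAs. No member, and none of the 12900 RNAs, had an adjusted p under 0.05 for the difference of enrichment between the lines (limma), and 1 member was higher (1.36% of all RNAs) and 3 were lower (0.961%) at an unadjusted p under 0.05. At the unadjusted p under 0.1 used by the study for this comparison 5 members were called, 2 higher and 3 lower, against 5.80% of all RNAs (3.44% higher and 2.36% lower). The same HBB and Pkp4 cUTR libraries enter the values above. Dctn6 had a difference of -0.29 (95% interval -0.51 to -0.08), Pkp4 cUTR minus HBB, Dync1li2 of -0.33 (-0.63 to -0.03) and Dynll2 of -0.33 (-0.65 to -0.01). Kif3a had a difference of 0.50 (0.09 to 0.91) and Kif4 of 0.58 (-0.10 to 1.26), and the adjusted p of all 5 was 1.00 (limma). For Kif1c and Kif5b the differences were -0.21 (-0.60 to 0.18) and 0.11 (-0.42 to 0.63), intervals that include 0. Without HBB_Ps replicate 3 the Dynll2 difference was −0.20 and lost its call, and the Kif4 difference lost its call in 8 of 16 such fits (without HBB_CB replicate 3 or 4, HBB_Ps 2 or 4, Pkp4_CB 1 or 2, or Pkp4_Ps 3 or 4), where it was between 0.39 and 0.58.

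Replicates of the same number deviated together between the lines, so the fit with the replicate number as a block shared by the lines is given beside these results. It called 8 members for the difference of enrichment, 3 higher (4.18% of all RNAs in that fit) and 5 lower (3.12%), adding Kif9 (-0.45), Dync1h1 (0.21) and Dynlt1b (-0.26) to the same 5. Without replicate 4 of both lines' cell bodies 8 were called, 4 higher (4.84% of all RNAs in that fit) and 4 lower (2.17%), with Kif3a at 0.67.

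The lines were also compared within each fraction. In cell bodies 4 members passed an adjusted p of 0.05 (8.97% of all RNAs), Kif22 and Kif23 higher (3.42%) and Dctn6 and Klc2 lower (5.55%) in Pkp4 cUTR cells. In protrusions 5 passed (7.16%), Kif3a and Kif4 higher (2.89%) and Dctn6, Dynll2 and Klc2 lower (4.26%). With the replicate block the counts were 6 (11.2% of all RNAs in that fit) and 8 (10.3%). The 2 added in cell bodies were Kif16b (0.39, adjusted p = 0.0466, limma) and Kif2c (0.55, 0.0354), and the 3 added in protrusions were Kif22 (0.74, adjusted p = 0.00926, limma), Dync1li2 (-0.31, 0.0193) and Kif9 (-0.73, 0.0115). Without replicate 4 of both lines' cell bodies they were 3 (5.95%) and 8 (9.94%). Krt14 was also higher in the Pkp4 cUTR line, with log2 differences of 0.61 in cell bodies and 0.70 in protrusions (adjusted p = 0.000164 and 5.38e-05, limma), as was the other epithelial RNA, Cdh1, in cell bodies (0.52, adjusted p = 0.0247; 0.32, adjusted p = 0.254, in protrusions). The summed level of the pair was 147 to 183 CPM in HBB and 215 to 275 CPM in Pkp4 cUTR libraries, and its part in the results between the lines was not tested.

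Dctn6 and Klc2 were lower in both fractions. Dctn6 had 35.5, 34.8, 39.1 and 31.4 CPM in Pkp4 cUTR protrusions and 30.97, 28.4, 27.8 and 31.7 CPM in the cell bodies, and every library was below its HBB counterparts given above. The log2 difference was -0.56 ± 0.07 in protrusions (adjusted p = 0.000102, limma) and -0.26 ± 0.07 in cell bodies (adjusted p = 0.0312). The second call was lost without any one HBB cell-body library or Pkp4_CB replicate 2 or 3, with adjusted p up to 0.0801. Klc2 had 76.2, 66.9, 77.8 and 78.8 CPM in HBB and 59.6, 53.6, 52.1 and 60.97 CPM in Pkp4 cUTR protrusions, without overlap, and 89.4, 85.5, 97.9 and 87.8 against 73.01, 72.7, 82.6 and 63.7 CPM in cell bodies, also without overlap. Its log2 differences were -0.40 ± 0.08 (adjusted p = 0.00599, limma) and -0.31 ± 0.08 (adjusted p = 0.0235), and the cell-body call was lost without HBB_CB replicate 1 or 3 or Pkp4_CB replicate 1 or 4 (adjusted p up to 0.0906). Dynll2 was lower in Pkp4 cUTR protrusions (-0.52 ± 0.11, adjusted p = 0.00657, limma), where its highest library (replicate 1, at 418 CPM) just passed the lowest HBB library (416 CPM). In cell bodies its difference was -0.19 ± 0.11 (adjusted p = 0.308).

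Kif3a was the transport kinesin that differed in protrusions. It had 5.74, 6.99, 5.32 and 5.95 CPM in HBB and 7.66, 9.56, 9.54 and 8.32 CPM in Pkp4 cUTR protrusions, without overlap, and 6.20, 5.49, 6.71 and 4.70 against 5.95, 4.77, 6.13 and 7.34 CPM in cell bodies, which overlapped. The log2 difference in protrusions was 0.54 ± 0.14 (adjusted p = 0.0255, limma). It was lost without HBB_Ps replicate 1, 3 or 4 or Pkp4_Ps replicate 2 or 3, with adjusted p up to 0.0781, and with reads scaled to totals. Its partner Kifap3 differed in the same direction (0.45, adjusted p = 0.0158), while the partner motor Kif3b did not pass (-0.14, adjusted p = 0.348).

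Each of the mitotic RNAs Kif4, Kif22 and Kif23 was higher in 1 fraction of the Pkp4 cUTR line, Kif22 and Kif23 in cell bodies and Kif4 in protrusions. In the other fraction the log2 differences were 0.72, 0.40 and 0.28 (adjusted p = 0.0544, 0.309 and 0.538, limma). Kif22, which binds chromosome arms, had 9.46, 10.6, 11.2 and 11.6 CPM in HBB and 15.5, 13.4, 22.6 and 26.5 CPM in Pkp4 cUTR cell bodies, without overlap, with a log2 difference of 0.81 ± 0.19 (adjusted p = 0.00909, limma). Kif23, a motor of cytokinesis, had 0.969, 0.622, 0.564 and 0.813 and 1.17, 1.248, 1.56 and 1.22 CPM in the same groups, a difference of 0.83 ± 0.22 (adjusted p = 0.0204) that was lost without HBB_CB replicate 2 or 3 or Pkp4_CB replicate 3 (adjusted p up to 0.0942). Kif4 had 2.80, 2.003, 2.72 and 2.35 CPM in HBB and 3.39, 4.05, 6.36 and 4.62 CPM in Pkp4 cUTR protrusions, without overlap. Its difference there was 0.86 ± 0.22 (adjusted p = 0.0201, limma), lost without HBB_Ps replicate 2 or 4 or Pkp4_Ps replicate 3 (adjusted p up to 0.0669). Of the 10 proliferation RNAs 4 were higher (3.42% of all RNAs) and none lower (5.55%) in Pkp4 cUTR cell bodies. In protrusions 3 were higher (2.89%) and none lower (4.26%). The medians were 0.51 and 0.69. The summed proliferation level was 111 to 129.7 CPM in HBB and 134 to 223 CPM in Pkp4 cUTR cell bodies, and its part in these 3 results was not tested.

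**Figure D5:**
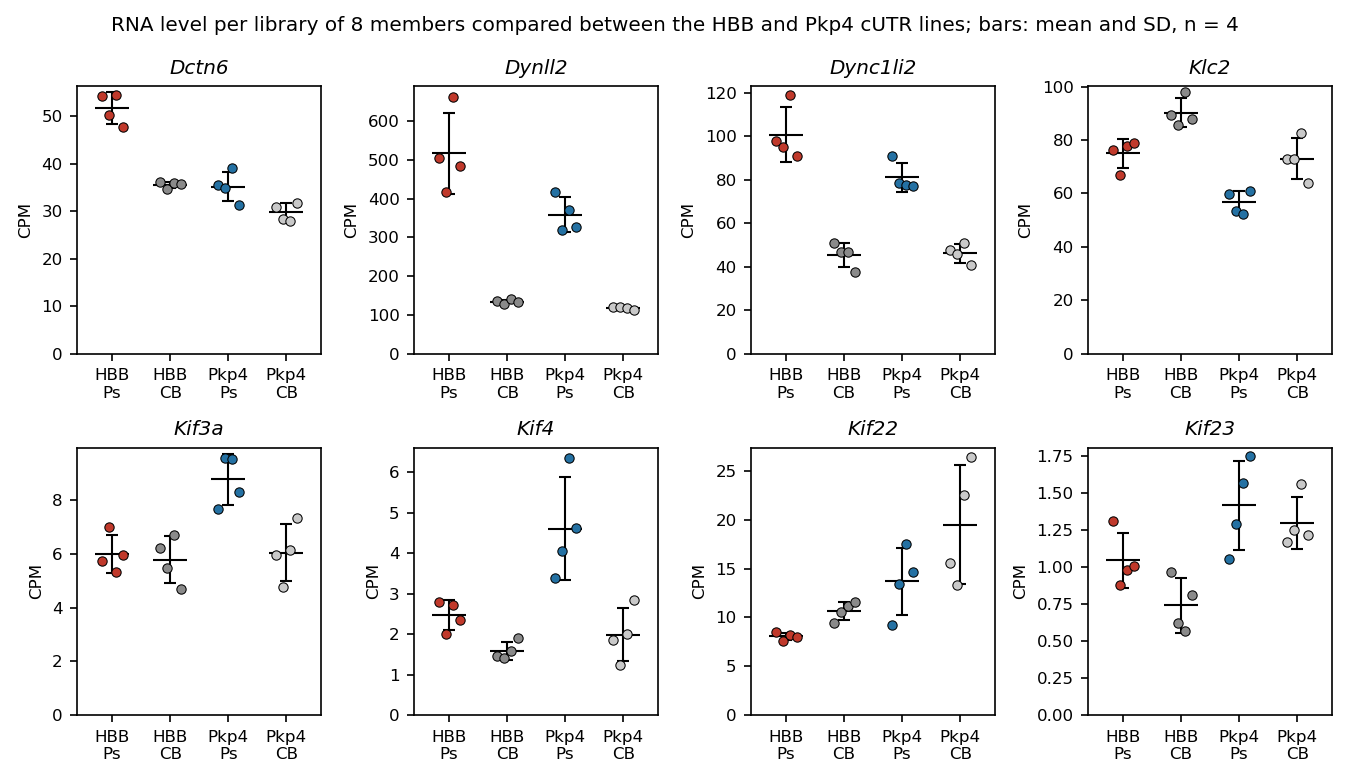
CPM (y axes, from 0) of Dctn6, Dynll2, Dync1li2, Klc2, Kif3a, Kif4, Kif22 and Kif23 in each library of the HBB and Pkp4 cUTR lines. Points are the 4 libraries of a group, bars the mean and SD. Dctn6 and Klc2 are lower in both fractions of the Pkp4 cUTR line without overlap, and Kif3a and Kif4 are higher in its protrusions.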

How the data were processed

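The deposited file held log2 CPM values of 12900 RNAs in 16 libraries, which the authors made with limma-voom (limma 3.26.1) from reads aligned by STAR 2.4.2a to mm10 and counted with Rsubread against GENCODE mouse genes, with a stated cutoff of log2 CPM over 0.5 in at least 1 sample. In the values, 1418 RNAs (members Kif15 and Kif24 among them) did not exceed that log2 value in any library, while every RNA exceeded 0.5 reads per 1000000 of the total in at least 2. Reads were recovered from these values: 100% came out whole within 0.01, with the authors' scaled library sizes. CPM is reads per 1000000 of the scaled library. A count of 3 reads, the lowest taken as measured, was 0.0890 to 0.176 CPM.

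Fits used limma-voom (limma 3.58.1, R 4.3.3) over all RNAs with 1 mean per group and Benjamini-Hochberg adjustment. The groups came from the sample labels. P-values measure only the spread between these libraries, which the labels do not tie to separate cultures. Columns of the authors' own fold changes and p-values were not used. The members, lists and tests were chosen with earlier results of these data known. Named were up to 8 called members per direction and comparison by p, 13 fixed genes and the top 3 per class by level per kilobase (29 genes). Other members were named to complete a complex or list, after their values were seen. Lengths, positions and sequences came from GENCODE vM21 (GRCm38), in which all 53 members were found by symbol.

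Whether replicate numbers pair libraries was checked over 10154 RNAs. Deviations of same-numbered libraries correlated at 0.331 to 0.628 between the lines' cell bodies and 0.196 to 0.392 between their protrusions. The main fits did not use this pairing. A fit with the replicate number as a block shared by the lines is given beside them. The fit was tested on simulated data. Alternatives were other scalings, filters, weights, thresholds, replicate blocks and leaving out each library.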

Additional observations from a re-analysis of the deposited data

Results flagged for a closer look

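In 116 groups of 4 libraries (29 named genes), 6 had a single library far from the other three, where chance gives about 1 in 20, or 5.8. Dync1li2 in Pkp4 cUTR protrusions was at 91.1 CPM in replicate 1 against 77.4 to 78.5. Dync2h1 was at 1.67 CPM in replicate 3 of the same group against 2.87 to 2.99, and at 1.82 CPM in replicate 1 of the Pkp4 cUTR cell bodies against 1.89 to 1.90. Dynll1 in Pkp4 cUTR protrusions was at 281 CPM in replicate 3 against 219 to 223. Among the Pkp4 cUTR cell bodies, replicate 4 (also farthest from its group over all RNAs) had Kif7 at 19.1 CPM against 22.8 to 23.7 and Kifc2 at 4.78 CPM against 6.12 to 6.39. All 6 lay in the Pkp4 cUTR line.

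For 4 RNAs the enrichment in protrusions differed between the lines at an unadjusted p under 0.05 (limma), with an adjusted p of 1.00 each. The log2 difference, Pkp4 cUTR minus HBB, was −0.29 ± 0.10 (SE) for Dctn6, −0.33 ± 0.14 for Dync1li2, −0.33 ± 0.15 for Dynll2 and 0.50 ± 0.20 for Kif3a.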

How the results depend on the processing

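Scaling reads to sample totals moved the class medians most, to −0.27 and −0.38 for kinesins, 0.19 and 0.15 for dynein and 0.0270 and −0.00832 for dynactin in HBB and Pkp4 cUTR cells, and turned Dctn2 in HBB cells to −0.0516 and Dctn6 in Pkp4 cUTR cells to −0.0204, neither of which passed. A more than 2-fold change with an unadjusted p under 0.05 left 7 members in HBB (5 higher, 2 lower) and 8 in Pkp4 cUTR cells (5 higher, 3 lower). At an adjusted p under 0.05 the difference of enrichment called 0, and with a 2-fold change added the lines differed in 0 members in either fraction (limma); at the unadjusted p, 1 and 3 members passed for the difference. Both the replicate block shared by the lines and the fit without replicate 4 of both lines' cell bodies (chosen after seeing the data) gave 8 members for the difference and 8 for protrusions between the lines. The main fits did not pair same-numbered protrusions and cell bodies. Their deviations correlated at 0.0455 to 0.389 in HBB cells (mean 0.178, against −0.0621 for different numbers). In Pkp4 cUTR cells the values were −0.362 to 0.00248 (mean −0.161, against 0.0611). These correlations do not settle whether the fractions are pairs. A block for each line gave 32 and 33 members where 34 and 35 were called. Leaving out 1 library gave 25 to 35 members in HBB cells, 29 to 37 in Pkp4 cUTR cells, 4 to 7 for the difference, 1 to 4 between the cell bodies (2 without HBB_CB replicate 1 or 2 or Pkp4_CB replicate 3, 1 without HBB_CB replicate 3) and 3 to 7 between the protrusions (3 without HBB_Ps replicate 4 or Pkp4_Ps replicate 3). Of the called values of named genes under the other settings, 613 kept direction and side of the threshold, 21 lost the call and 2, given above, turned, and of those with 1 library left out 877 kept both and 67 lost the call. The cause of these changes was not tested. RNAs near 1 CPM, such as Kif15, Kif23 and Kif24, have the widest errors.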
